A study of Mus musculus with 50 samples.

Results

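Goblet cells of the mouse airway were followed through 4 genes, Spdef, Foxa3, Agr2 and Ern2. The genes were found by their symbol in the annotation of the array platforms, and all 4 were present among the 13409 genes named on the larger platform and among the 13509 genes named on the smaller one. Agr2 had 2 spots of the same accession on the larger platform, which were averaged, and each of the others had 1 spot.

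Spdef is an Ets family transcription factor that drives airway epithelial cells towards the goblet fate, and Foxa3 is a forkhead transcription factor that promotes the same fate. Agr2 is a protein disulfide isomerase of the endoplasmic reticulum that is needed to fold mucins. Ern2 (IRE1 beta) is a sensor of unfolded proteins that is found in mucus-making epithelia. In allergic airways IL-13, acting through the transcription factor Stat6, turns on mucus production, and Spdef and Foxa3 lie in that programme upstream of mucins and of Agr2.

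The 50 spotted arrays had 2 channels, a reference and a sample, which was RNA recovered by perfusing the trachea (tracheal perfusate) on 25 arrays and whole lung RNA on 25. Per tissue, 5 arrays held RNA of IL-13 mice that were Stat6+/-, 5 of IL-13 mice that were Stat6-/- with the mark Epi+, and 5 of IL-13 mice that were Stat6-/-. A further 5 arrays per tissue were labelled OVA (ovalbumin, an allergen) and 5 PBS (phosphate-buffered saline). In published lines named Epi+, Stat6 was put back in airway epithelium only, whereas the labels give the mark alone. The labels state neither how IL-13 was supplied nor the age or strain of any mouse, nor a Stat6 genotype for OVA and PBS, and no group carried these Stat6 genotypes without IL-13.

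Perfusate RNA had gone through 1 round of amplification, although this was not stated for 3 perfusate arrays, and lung RNA had not been amplified. The perfusate arrays were hybridised against 5 reference preparations (1.1 to 1.5), and each preparation served 1 array per group. Lungs of IL-13 mice were compared with reference pools 3 and 4, and OVA and PBS lungs with pool 2 on the smaller platform. Values are log2 ratios of sample to reference, less the median of the array, so a value of 1 is a ratio 2 times the array's median ratio. Levels are therefore not comparable between genes, between the tissues or between the platforms, and the ratios carry no absolute level. The labels do not tie the arrays to separate animals, and the p-values thus reflect array-to-array spread that may be technical.

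Which channel is the numerator is unstated, and the ratio was taken as sample over reference because Il13 was high in the IL-13 groups. Il13 lay between 1.27 and 3.41 in the 3 IL-13 groups of perfusate and between -0.37 and 0.48 in PBS perfusate. The Stat6 probe averaged 0.65 ± 0.51 in Stat6+/- and 0.75 ± 0.44 in Stat6-/- perfusate (SD, n = 5 each). The probe's place within Stat6 is unknown here, so it does not check the genotype. On the larger platform 1 probe of the Y-linked gene Eif2s3y was between -3.45 and -1.93 on 5 Stat6-/- arrays, perfusate replicates 10, 11 and 12 and lung replicates 1 and 2, and at -0.71 or higher on every other array. A second Eif2s3y probe did not separate the 3 perfusate arrays, where it was between 0.03 and 0.52. Differences from Stat6-/- are given with and without these arrays where a result rests on them.

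The results turn on Agr2 and Spdef, so the sequence around the transcription start of each is shown. They are 250 bases before and 50 after the start, from RefSeq on GRCm38.p6. The table held such a sequence for 3 of the 4 genes, without Ern2. The arrays' files name no genome build. Agr2 lies at chr12:35992675-35992974 on the plus strand and Spdef at chr17:27728902-27729201 on the minus strand, and both are written 5′ to 3′ in the direction of transcription.
Agr2: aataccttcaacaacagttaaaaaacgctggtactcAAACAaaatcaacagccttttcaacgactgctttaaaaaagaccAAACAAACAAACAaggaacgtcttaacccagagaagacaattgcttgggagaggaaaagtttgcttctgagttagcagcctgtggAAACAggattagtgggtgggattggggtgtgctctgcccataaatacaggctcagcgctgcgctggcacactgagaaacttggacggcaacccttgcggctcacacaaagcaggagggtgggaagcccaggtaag
Spdef: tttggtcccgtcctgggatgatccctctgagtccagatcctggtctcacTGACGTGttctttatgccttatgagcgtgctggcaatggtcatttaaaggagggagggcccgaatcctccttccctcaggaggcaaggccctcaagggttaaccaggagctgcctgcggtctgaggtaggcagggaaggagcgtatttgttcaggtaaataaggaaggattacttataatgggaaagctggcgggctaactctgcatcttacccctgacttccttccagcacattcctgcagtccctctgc
Capitals mark 2 motifs, searched on both strands. The first is TGTTT, a core that forkhead factors bind, and it reads AAACA on the strand shown. Agr2 held 5 copies, at bases 37 to 41, 81 to 85, 85 to 89, 89 to 93 and 166 to 170, of which the middle 3 share their end bases. Spdef and Foxa3 held 0. Of 32851 promoters of this length 50.5% hold TGTTT. The second is TGACGTG, the core of an unfolded protein response element, present in 2.01% of promoters, with 1 copy in Spdef at bases 50 to 56 and 0 in Agr2 and Foxa3. The palindrome that Stat6 can bind, TTC and GAA with 4 bases of any kind between them, is in 6.95% of promoters and was not in these 3 windows. The Ets core GGAA is in 96% of promoters and occurred 4 times in Agr2, 7 times in Spdef and 2 times in Foxa3; in Agr2 1 of these, at bases 164 to 167, overlaps the TGTTT copy at bases 166 to 170.

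In whole lung Agr2, the mucin-folding isomerase, was the only 1 of the 4 genes called in any comparison, although the fit over the IL-13 lungs did not include Spdef, which had only 2 values in Stat6+/-. It stood highest in Stat6+/-, next in Epi+ and lowest in Stat6-/- lungs of IL-13 mice, and it was higher in OVA than in PBS lungs. The Stat6+/- arrays had Agr2 values of 3.49 and 3.74 against pool 3 and 4.80, 5.06 and 5.23 against pool 4. The Epi+ arrays had 2.23, 2.41 and 3.04 against pool 3 and 3.27 and 3.83 against pool 4. The Stat6-/- arrays had -1.19 and -0.27 against pool 3 and -0.27, 0.22 and 0.46 against pool 4. Every Stat6+/- and every Epi+ array was above every Stat6-/- array. Stat6+/- and Epi+ arrays overlapped over both pools together but not within either pool.

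Group means of Agr2 in whole lung were 4.46 ± 0.79 in Stat6+/-, 2.96 ± 0.65 in Epi+ and -0.21 ± 0.63 in Stat6-/- (SD, n = 5 each). The Stat6+/- minus Stat6-/- difference was 4.67 ± 0.25 (SE), or 25.5-fold, with a limma adjusted p of 9.89e-07 over all probes. Of the 16096 probes tested in that comparison 4.84% were called, and Agr2 ranked 1 by p. The Epi+ minus Stat6-/- difference was 3.38 ± 0.25, or 10.4-fold, with a limma adjusted p of 7.37e-05. There 0.0746% of probes were called and Agr2 again ranked 1. Both comparisons use the same Stat6-/- arrays. Without the 2 Stat6-/- lung arrays low in Eif2s3y the differences were 4.63 ± 0.30 and 3.33 ± 0.30, both still called by limma. The median array ratio was itself -0.37 in Stat6+/- and -0.16 in Epi+ relative to Stat6-/- lungs on the log2 scale, and without centring the Agr2 differences were 4.30 and 3.19. The differences were close in the 2 pools. For Stat6+/- minus Stat6-/- they were 4.34 in pool 3 and 4.89 in pool 4, and for Epi+ minus Stat6-/- 3.29 and 3.42.

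The Stat6+/- minus Epi+ difference of Agr2 in whole lung was smaller, at 1.29 ± 0.25 or 2.44-fold, with a limma adjusted p of 0.0158, where 3.42% of probes were called. It was 1.06 in pool 3 and 1.48 in pool 4. The call was lost without Epi+ replicate 3 (adjusted p = 0.0517 by limma) and without centring (adjusted p = 0.279 by limma), while the difference stayed between 1.11 and 1.54 over all alternatives.

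Agr2 in OVA lungs was 1.42, 2.13, 2.15, 2.28 and 2.50, against -0.28, 0.05, 0.10, 0.33 and 0.35 in PBS lungs. The groups did not overlap. OVA averaged 2.10 ± 0.41 and PBS 0.11 ± 0.25 (SD, n = 5 each), a difference of 1.99 ± 0.25 (SE) or 3.96-fold with a limma adjusted p of 0.00898, rank 17 of 17047 probes, of which 1.75% were called. Without centring the difference was 1.82 ± 0.34, not called (limma adjusted p = 0.0583).

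**Figure D1:**
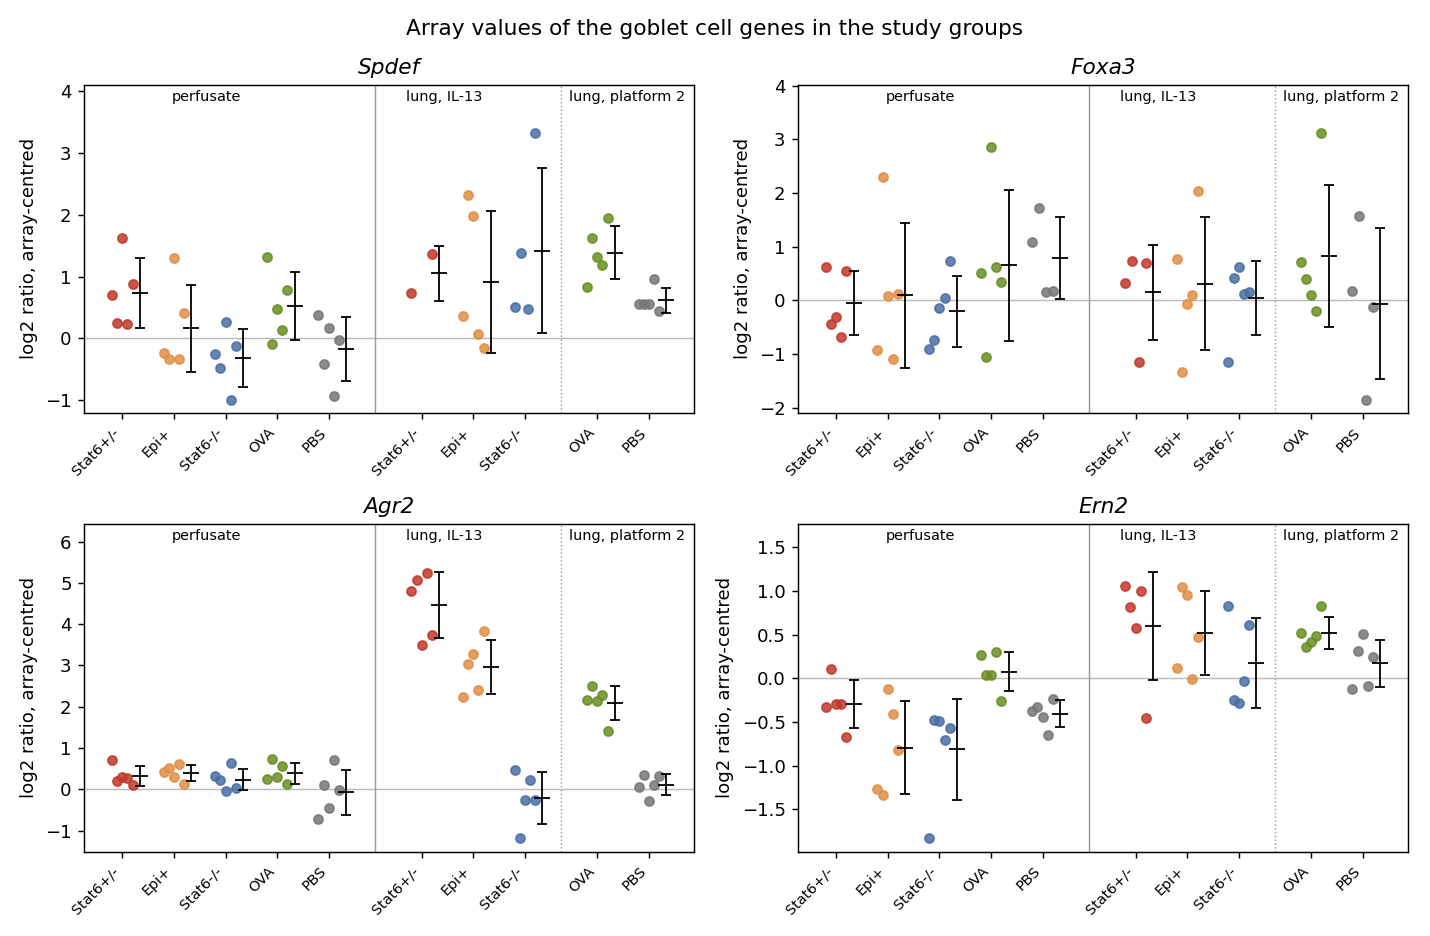
Log2 ratio of sample to reference, less the array median, of the 4 genes on every array (points) with the mean and SD of each group (bars). Columns hold Stat6+/-, Epi+, Stat6-/-, OVA and PBS for perfusate, then the 3 IL-13 groups and the OVA and PBS groups of whole lung, the last 2 on another platform. Agr2 is high in Stat6+/-, Epi+ and OVA lungs, with means of 4.46, 2.96 and 2.10, and lies between -0.72 and 0.74 on every perfusate array.

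Other cell types also differed between the lung groups. Over all probes 4.84% were called in Stat6+/- against Stat6-/- lungs, 0.0746% in Epi+ against Stat6-/- lungs and 1.75% in OVA against PBS lungs. Of 7 macrophage markers tested 6 were called higher in Stat6+/- than in Stat6-/- lungs, and the mean of the 5 markers with a value on every array was 1.67 to 3.32 in Stat6+/-, -0.44 to 0.26 in Epi+ and -0.29 to 0.29 in Stat6-/- lungs. In Epi+ against Stat6-/- lungs 0 of 7 macrophage markers were called. Their median difference was -0.02, with a range from -1.02 ± 0.64 (Adgre1) to 1.12 ± 0.54 (Marco). Only 12 of all 16096 probes were called there, so a count of 0 says little about a short list. General epithelial markers had list means of 0.47 to 1.54 in Stat6+/-, 0.05 to 0.77 in Epi+ and 0.17 to 0.75 in Stat6-/- lungs. Of 11 club cell markers 5 were called lower in Stat6+/- than in Stat6-/- lungs and 0 in either direction in Epi+ against Stat6-/- lungs. Neutrophil markers had means of 0.86 to 2.78 in Stat6+/-, 0.15 to 0.67 in Epi+ and -0.28 to 0.96 in Stat6-/- lungs, with 2 of 9 called higher in Stat6+/-, and alveolar type II markers 0.50 to 0.87, -0.08 to 0.51 and -0.10 to 0.42, with 2 of 5 called higher in Stat6+/-. Endothelial markers had 2 of 7 called lower in Stat6+/- than in Stat6-/- lungs. In OVA against PBS lungs 4 of 8 macrophage markers were called higher and 2 of 11 club cell markers lower. Means of B cell markers were 0.90 to 2.16 in OVA and -0.89 to 0.46 in PBS lungs, with 2 of 7 called higher, and means of eosinophil and mast cell markers 0.67 to 2.12 in OVA and -0.50 to -0.09 in PBS lungs, with 1 of 10 called higher. Endothelial markers had means of -1.34 to -0.80 in OVA and -0.35 to -0.07 in PBS lungs, with 0 of 7 called. The part of cell makeup in the Agr2 values was not tested, and in such bulk RNA fewer cells of a type and less RNA per cell cannot be told apart.

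In tracheal perfusate Agr2 did not pass the test in any of the 7 comparisons. In order of reference preparation 1.1 to 1.5 its values were 0.26, 0.20, 0.72, 0.30 and 0.11 in Stat6+/-, and 0.62, 0.52, 0.41, 0.29 and 0.12 in Epi+. They were 0.22, 0.64, 0.32, -0.04 and 0.04 in Stat6-/-, and 0.74, 0.56, 0.24, 0.30 and 0.12 in OVA. PBS had 0.71, 0.11, -0.72, -0.44 and -0.01, and held the lowest arrays of all. Group means were 0.32 ± 0.23 in Stat6+/-, 0.39 ± 0.19 in Epi+, 0.24 ± 0.27 in Stat6-/-, 0.39 ± 0.25 in OVA and -0.07 ± 0.55 in PBS (SD, n = 5 each). The groups overlapped throughout. The Stat6+/- minus Stat6-/- difference was 0.08 ± 0.19 (SE), with a 95% interval of -0.32 to 0.48, and it was -0.06 without the 3 perfusate arrays low in Eif2s3y. The OVA minus PBS difference was 0.46 ± 0.19, with a limma adjusted p of 0.435. The differences of Agr2 from Stat6-/- were not the same in the tissues. The tissues also differed in amplification and in reference, and these cannot be told apart from tissue here. For Stat6+/- against Stat6-/- the perfusate difference minus the lung difference was -4.59 ± 0.30, with a limma adjusted p of 2.12e-11, where 4.31% of 15370 probes were called. For Epi+ against Stat6-/- it was -3.23 ± 0.30, with a limma adjusted p of 1.84e-07, where 0.0976% were called. Agr2 ranked 1 by p in both.

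The perfusate Agr2 values had a further property. Before centring, the deposited ratio of the first Agr2 spot was exactly 1.000 on 3 of 25 perfusate arrays, and that of the second on 5 of 25. A ratio of exactly 1.000 made up 1.01% of all perfusate values, and only 0.825% of spots had it on 3 or more arrays and 0.115% on 5 or more. Within 0.01 of a ratio of 1 lay 8 and 13 of the 25 arrays for the 2 spots, against 2.29% of all perfusate values. In the lungs of IL-13 mice neither Agr2 spot had a ratio of exactly 1.000. The deposited Agr2 log2 ratios of perfusate spanned -0.79 to 0.56, against -1.79 to 5.08 in the lungs of IL-13 mice.

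Other spots with many exact ratios of 1 in perfusate were looked up after this was seen. They included Ppia (11 arrays), Reg3g (11), Tpt1 (10), Bpifa1 (9) and the ribosomal protein gene Rps3a1 (9), and the club cell genes Cbr2 (7), Cyp2f2 (6), Scgb3a1 (6) and Scgb1a1 (5). Spdef, Foxa3 and Ern2 had 0. Intensities were not used here, so whether both channels of these spots were at the upper limit of the scanner was not tested. The perfusate differences of Agr2, and with them the differences between the tissues, rest on these values.

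**Figure D2:**
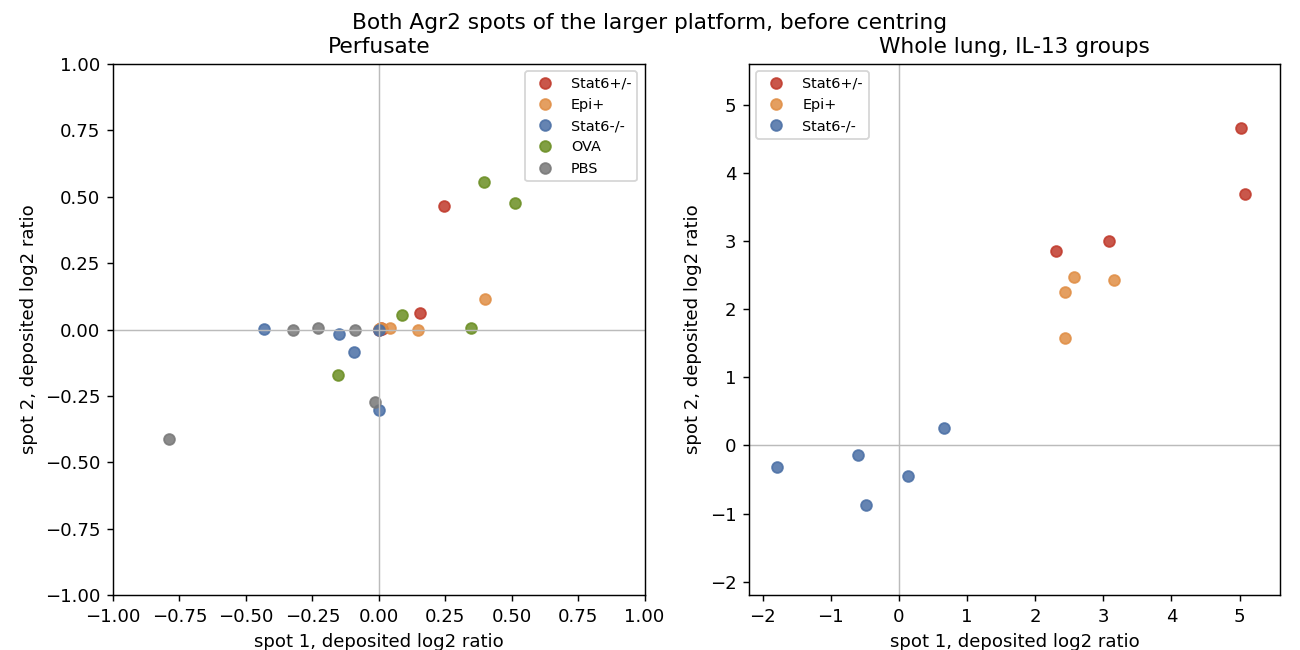
Deposited log2 ratios, before centring, of the 2 Agr2 spots of the larger platform against each other, 1 point per array, for the 25 perfusate arrays (left) and the whole lung IL-13 arrays with both values (right), on different scales. Many perfusate points lie on or beside the lines at 0, a ratio of 1, while in lung Stat6+/- and Epi+ arrays lie above the Stat6-/- arrays on both spots.

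Spdef, the Ets factor of goblet cells, was higher in perfusate of Stat6+/- than of Stat6-/- mice, and higher in Stat6+/- than in PBS perfusate. In order of reference preparation 1.1 to 1.5 its values were 0.23, 0.25, 0.70, 1.62 and 0.89 in Stat6+/-, and -0.33, -0.33, -0.24, 1.30 and 0.42 in Epi+. In the same order they were -0.49, -0.99, -0.25, 0.27 and -0.12 in Stat6-/-, and -0.09, 0.14, 1.32, 0.48 and 0.78 in OVA. PBS had -0.93, -0.42, 0.38, 0.18 and -0.03. The ranges of the groups overlapped, but within each of the 5 preparations Stat6+/- was above Epi+, Stat6-/- and PBS, and OVA was above PBS.

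Spdef averaged 0.74 ± 0.57 in Stat6+/-, 0.16 ± 0.71 in Epi+ and -0.32 ± 0.47 in Stat6-/- perfusate (SD, n = 5 each). The Stat6+/- minus Stat6-/- difference was 1.05 ± 0.23 (SE), or 2.07-fold, with a limma adjusted p of 0.0112, where 3.14% of 16873 probes were called. Within the preparations it was 0.71, 1.24, 0.96, 1.35 and 1.01. Spdef was the only 1 of the 4 genes called in this comparison. Without the 3 perfusate arrays low in Eif2s3y the difference was 1.19 ± 0.33 and not called (limma adjusted p = 0.113), and with no block for the preparation it was 1.05 ± 0.35 and not called (limma adjusted p = 0.192).

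Against PBS perfusate, which averaged -0.17 ± 0.52, the Stat6+/- difference of Spdef was 0.90 ± 0.23, or 1.87-fold, with a limma adjusted p of 0.020, where 7.13% of probes were called. The difference was 0.81 ± 0.24 without Stat6+/- replicate 6 and 0.83 ± 0.24 without PBS replicate 24, and was then not called (limma adjusted p = 0.0666 and 0.0566). OVA perfusate averaged 0.53 ± 0.55, and its difference from PBS was 0.69 ± 0.23 with a limma adjusted p of 0.277, where 0.237% of probes were called. It lay between 0.31 and 0.94 in the 5 preparations.

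The other perfusate comparisons of Spdef were not called. Epi+ minus Stat6-/- was 0.48 ± 0.23 (limma adjusted p = 0.664, 95% interval 0.01 to 0.95), where 0.486% of probes were called. Stat6+/- minus Epi+ was 0.57 ± 0.23 (limma adjusted p = 0.579, 95% interval 0.10 to 1.05), where 0.0237% were called, with 4 calls over all probes and 1184 at an unadjusted p under 0.05. Epi+ minus PBS was 0.33 ± 0.23 (limma adjusted p = 0.415), where 2.83% were called, and Stat6-/- minus PBS was -0.15 ± 0.23 (limma adjusted p = 0.749), where 0.599% were called. In every comparison of an IL-13 group with PBS, also that of Stat6+/- above, IL-13 and the Stat6 genotype cannot be told apart.

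**Figure D3:**
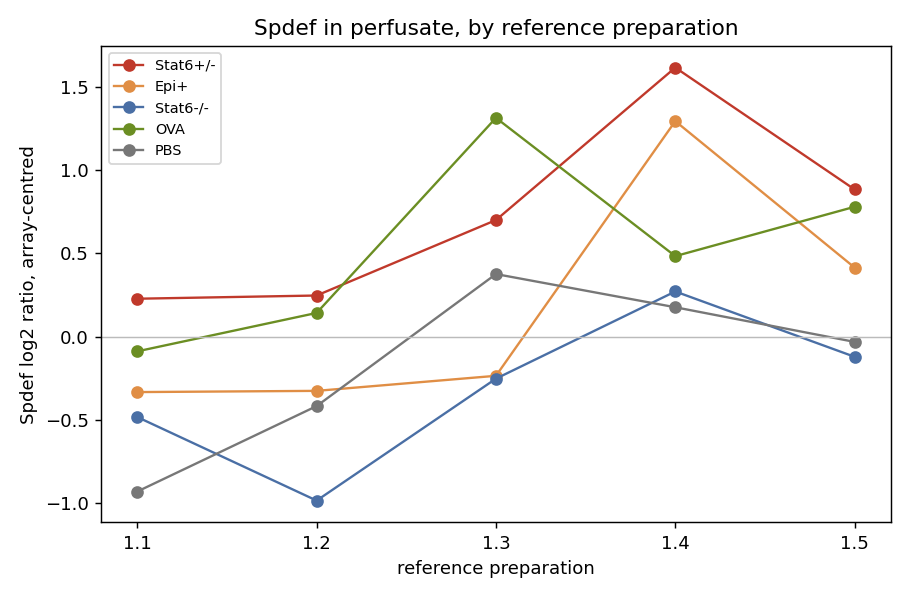
Spdef in tracheal perfusate, as the log2 ratio less the array median, by reference preparation, with 1 array per group and preparation and lines that join the arrays of a group. Stat6+/- lies above Stat6-/- in each of the 5 preparations, by 0.71 to 1.35, and OVA lies above PBS in each, by 0.31 to 0.94.

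Markers of some cell types also differed between the perfusate groups. Of 11 club cell markers 5 were called lower and of 10 ciliated cell markers 3 were called higher in Stat6+/- than in Stat6-/- perfusate, where 3.14% of all probes were called. The club cell markers Cyp2f2, Scgb3a1, Scgb1a1 and Aldh1a1 had ratios of exactly 1 on 6, 6, 5 and 5 perfusate arrays. Of 5 alveolar type II markers 1 was called, Sftpa1 (-2.55 ± 0.25), a surfactant protein. The others were not called and went both ways, Sftpd (-0.82) and Slc34a2 (-0.90) lower and Sftpc (0.79) and Abca3 (0.51) higher. The mean of the 5 markers was -1.38 to -0.57 in Stat6+/-, -1.17 to -0.71 in Epi+ and -0.92 to -0.09 in Stat6-/- perfusate. The mean of the 10 club cell markers with a value on every array was -1.14 to -0.33 in Stat6+/-, -0.39 to 0.17 in Epi+ and 0.15 to 0.49 in Stat6-/- perfusate. Of the ciliated cell markers it was 0.05 to 0.62, 0.07 to 0.74 and -0.37 to 0.16 in the same groups. General epithelial markers had means of -0.21 to 0.74 in Stat6+/-, -0.34 to 0.32 in Epi+ and -0.50 to 0.14 in Stat6-/- perfusate, with 1 of 11 called higher in Stat6+/-. None of the 7 macrophage, 8 basal cell, 10 eosinophil and mast cell, 9 neutrophil, 8 T cell, 7 B cell and 6 endothelial markers was called by limma. Their part in the Spdef difference was not tested.

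In the lungs of IL-13 mice several arrays gave no Spdef value. Stat6+/- lungs gave 0.74 and 1.37 and had no value on 3 arrays, all against pool 4. Epi+ lungs gave -0.15, 0.08, 0.36, 1.99 and 2.32. Stat6-/- lungs gave 0.48, 0.50, 1.39 and 3.32 and had no value on 1 array. The groups overlapped and the values spread over more than 3 log2 units. The fit over all 3 groups asked for 3 values in every group and left Spdef out because Stat6+/- had 2. With only Epi+ and Stat6-/- in the fit, Epi+ minus Stat6-/- was -0.46 ± 0.78 (limma adjusted p = 0.923). At a minimum of 2 values, a setting chosen after the data were seen, Stat6+/- minus Stat6-/- was -0.15 ± 1.02 and Epi+ minus Stat6-/- was -0.46 ± 0.74, neither called. The difference between the tissues at that setting was 1.20 ± 0.80 for Stat6+/- against Stat6-/- (limma adjusted p = 0.486).

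On the smaller platform Spdef was measured on all 10 lung arrays. OVA lungs had 0.83, 1.20, 1.32, 1.63 and 1.96, against 0.45, 0.55, 0.56, 0.56 and 0.96 in PBS lungs. Only the lowest OVA value lay below the highest PBS value. OVA averaged 1.39 ± 0.43 and PBS 0.62 ± 0.20 (SD, n = 5 each), and the difference of 0.77 ± 0.25 (SE) had a limma adjusted p of 0.168.

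Ern2, the stress sensor of mucus-making epithelium, was not called in any of the 13 comparisons. In order of preparation 1.1 to 1.5 its perfusate values were -0.30, 0.10, -0.33, -0.30 and -0.67 in Stat6+/-, -0.41, -1.34, -1.27, -0.12 and -0.82 in Epi+ and -0.48, -0.71, -1.83, -0.49 and -0.57 in Stat6-/-. OVA perfusate had 0.04, 0.30, 0.27, 0.04 and -0.26 and PBS perfusate -0.65, -0.33, -0.38, -0.44 and -0.24. The OVA and PBS ranges overlapped by 1 array of each. OVA minus PBS was 0.48 ± 0.24 with a limma adjusted p of 0.578, and 4 of the 5 preparations had differences of 0.48 to 0.69 while preparation 1.5 had -0.02. Stat6+/- minus Stat6-/- was 0.52 ± 0.24 with a limma adjusted p of 0.384, and it was 0.28 without Stat6-/- replicate 10, the array at -1.83, and 0.29 without all 3 arrays low in Eif2s3y.

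In whole lung Ern2 averaged 0.60 ± 0.62 in Stat6+/-, 0.52 ± 0.48 in Epi+ and 0.17 ± 0.51 in Stat6-/- (SD, n = 5 each). Stat6+/- ranged from -0.45 to 1.06, Epi+ from -0.01 to 1.04 and Stat6-/- from -0.28 to 0.83, so the 3 groups overlapped. The differences from Stat6-/- were 0.42 ± 0.27 in Stat6+/- and 0.47 ± 0.28 in Epi+ (limma adjusted p = 0.430 and 0.983), with 95% intervals up to 1.01 and 1.07. OVA lungs had 0.36, 0.41, 0.48, 0.52 and 0.83, against -0.12, -0.09, 0.24, 0.31 and 0.51 in PBS lungs, a difference of 0.35 ± 0.22 with a limma adjusted p of 0.461.

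Foxa3, the forkhead factor, spread widely between arrays of the same group. In order of preparation it was -0.68, -0.43, 0.63, -0.31 and 0.55 in Stat6+/- perfusate, -1.09, 2.30, -0.93, 0.09 and 0.12 in Epi+ perfusate and -0.74, 0.04, -0.91, -0.15 and 0.74 in Stat6-/- perfusate. OVA perfusate had -1.06, 0.62, 0.52, 2.85 and 0.34, and PBS perfusate had 1.72, 1.08, 0.16 and 0.18 with no value for preparation 1.1. All of these groups overlapped. The SD within the 10 groups was between 0.60 and 1.41, and Foxa3 was not called in any of the 13 comparisons.

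Stat6+/- minus Stat6-/- of Foxa3 was 0.15 ± 0.56 in perfusate and 0.15 ± 0.63 in whole lung, with 95% intervals of -1.02 to 1.32 and -1.21 to 1.51. Differences of more than 2-fold in either direction therefore lay within both intervals. OVA minus PBS was 0.13 ± 0.60 in the perfusate fit, which compares within preparations, although OVA averaged 0.66 and PBS 0.78 over the values present. In whole lung OVA minus PBS was 0.89 ± 0.79, with OVA at -0.19, 0.11, 0.40, 0.72 and 3.11 and PBS at -1.85, -0.13, 0.17 and 1.57.

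**Figure D4:**
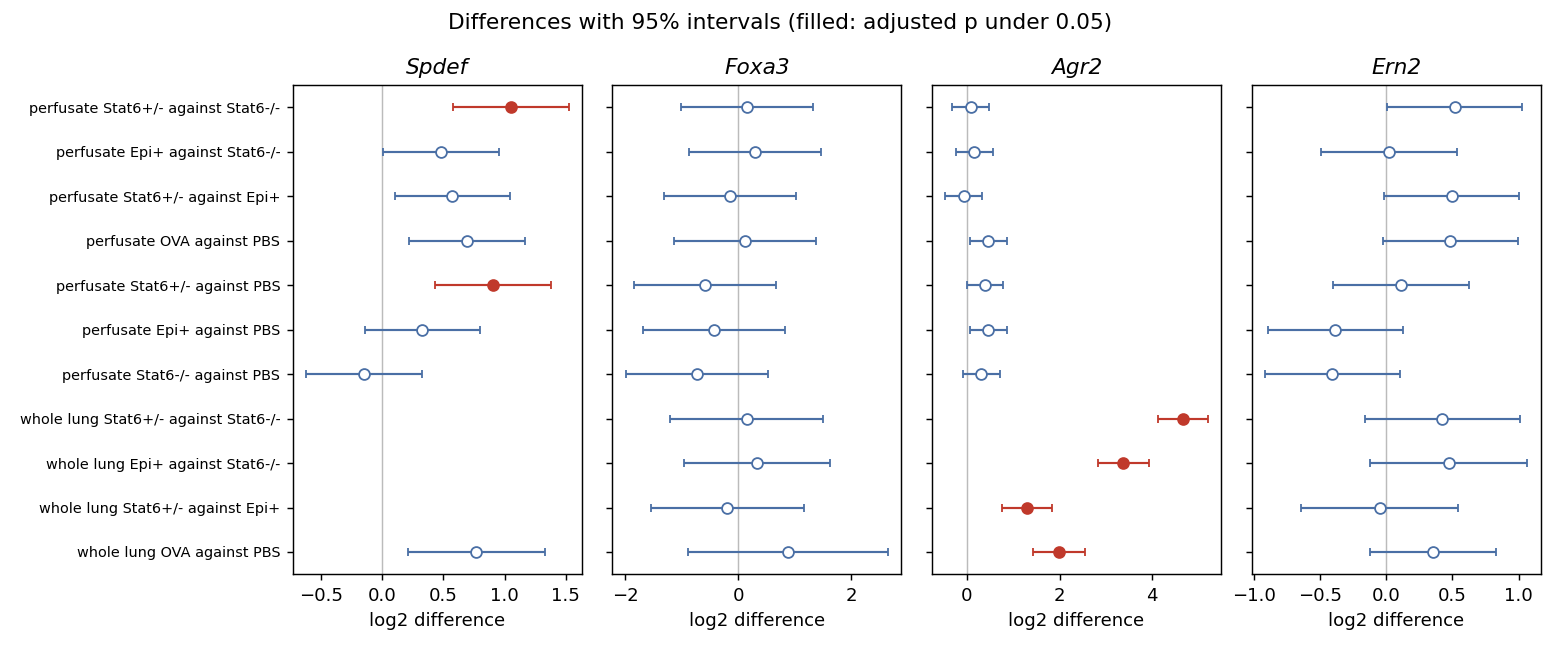
Log2 differences of the 4 genes in the 11 comparisons within a tissue, the first named group minus the second, with 95% intervals from limma and filled points for an adjusted p under 0.05. Filled are Spdef in perfusate Stat6+/- against Stat6-/- (1.05) and against PBS (0.90), and Agr2 in the 4 whole lung comparisons (4.67, 3.38, 1.29 and 1.99); Spdef has no point in the 3 comparisons among IL-13 lungs because Stat6+/- had only 2 values, which kept it out of their joint fit.

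The array-to-array likeness of the genes to one another and to others was described over arrays of all groups, with the means of the preparations or pools removed. Arrays of a group share their condition and arrays of a preparation their reference, so these correlations are descriptions. Spdef and Ern2 had Pearson's r = 0.59 over 25 perfusate arrays, and the other pairs of the 4 genes there lay between -0.12 and 0.17. In lungs of IL-13 mice Foxa3 and Ern2 had r = -0.60 over 14 arrays and Agr2 and Ern2 had r = 0.49 over 15, and the other pairs lay between -0.37 and 0.29 over 11 to 14 arrays. The genes most like Agr2 in lung were Reg3g (0.97), a secreted antibacterial lectin, Corin (0.96), a serine protease, and Chia1 (0.96), an acidic chitinase. In perfusate they were Exosc8 (0.89), Tuba1b (0.87), Larp7 (0.85), Ppia (0.84) and Myl6 (0.83), of which Ppia is among the spots with the most ratios of exactly 1.

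For Spdef in perfusate the most alike were Smarcd3 (0.90), Stau2 (0.86), Olfr70 (0.86), Tmem213 (0.86) and Aqp11 (0.84). For Ern2 they were Tmc6 (0.84), Rnaseh2c (0.83), Hic1 (0.81), Unk (0.81) and Ercc2 (0.80) in perfusate and Bpifb1 (0.82), Ccdc51 (0.79) and Cldn22 (0.79) in lung. For Foxa3 they were Slc25a2 (0.75), Rnf111, Ralgps2, Mlkl and 2200002J24Rik (0.66 to 0.70) over 24 perfusate arrays and Lpcat3, Fam151b and Mpnd (0.86 to 0.89) over 14 lung arrays.

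Genes of goblet cell products were called in both tissues, though not most of those tested in any comparison that follows. Of 25 genes of mucus and goblet products tested in perfusate 8 were called higher and 1 lower in Stat6+/- than in Stat6-/-, with a median difference of 0.45 against -0.02 for all probes. In Epi+ against Stat6-/- perfusate 5 were higher and 0 lower, and in OVA against PBS perfusate 3 were higher and 0 lower. Over all probes 1.11%, 0.148% and 0.172% were called higher in these comparisons. Clca1, a secreted protein of goblet cells, differed by 3.77 ± 0.31, 3.74 ± 0.31 and 3.39 ± 0.31 in these 3 comparisons, and the gel-forming mucin Muc5ac by 3.38 ± 0.29, 2.44 ± 0.29 and 2.81 ± 0.32. Each of these was called by limma. The third gene called in OVA perfusate was Slc26a4 (1.66 ± 0.28), and the gene called lower in Stat6+/- perfusate was Dmbt1 (-1.76 ± 0.28), a secreted scavenger receptor. The first 2 of these comparisons share the Stat6-/- arrays.

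In whole lung 11 of 22 such genes were called higher and 0 lower in Stat6+/- than in Stat6-/-, with a median of 1.63 against -0.04 for all probes. In Epi+ against Stat6-/- lungs 6 were higher and 0 lower, with a median of 0.80, and in OVA against PBS lungs 8 of 25 were higher and 0 lower, with a median of 0.57. Over all probes 3.23%, 0.0746% and 1.5% were called higher in these comparisons. The anion exchanger Slc26a4 (pendrin) differed by 6.82 ± 0.83 in Stat6+/- and 5.41 ± 0.85 in Epi+ against Stat6-/- lungs. The mucin Muc5b was 2.05 ± 0.33 higher in Epi+ than in Stat6-/- lungs, with a limma adjusted p of 0.0458. Clca1 differed by 7.58 ± 0.61 in Stat6+/- and 6.56 ± 0.62 in Epi+ against Stat6-/- lungs.

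Agr2 belongs to the disulfide isomerases, and 26 other isomerases and folding factors were measured beside it. In whole lung 12 were called higher and 0 lower in Stat6+/- than in Stat6-/-, where 3.23% of all probes were called higher, with a median of 0.63 against -0.04 for all probes. They were led by Fkbp11, a prolyl isomerase of the secretory pathway (1.89 ± 0.29), Sdf2l1 (1.62 ± 0.36), the chaperone Hspa5 or BiP (1.51 ± 0.19) and Creld2 (1.28 ± 0.25). In Epi+ against Stat6-/- lungs 0 were called, Hspa5 differed by 0.00 ± 0.18 and Agr2 by 3.38. In Stat6+/- against Epi+ lungs 10 were higher and 0 lower, with Hspa5 at 1.51 ± 0.19. In OVA against PBS lungs 0 were called by limma. Over all probes 0.0746%, 2.4% and 1.5% were called higher in Epi+ against Stat6-/-, Stat6+/- against Epi+ and OVA against PBS lungs.

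In perfusate 3 of 26 folding factors were called higher and 0 lower in Stat6+/- than in Stat6-/-, where 1.11% of all probes were called higher. They were Fkbp11 (1.29 ± 0.20), the secreted factor Manf (0.77 ± 0.19) and the cochaperone Dnajb9 (0.76 ± 0.20). Fkbp11 was the only 1 called in Epi+ against Stat6-/- (1.01 ± 0.20) and in OVA against PBS perfusate (1.07 ± 0.20). Over all probes 0.486% and 0.237% were called there. Against PBS, 8 folding factors were higher in Stat6+/- and 6 in Epi+ perfusate, among them Hspa5 (0.99 ± 0.16 and 1.12 ± 0.16). In these comparisons 2.84% and 1.27% of all probes were called higher.

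Of 21 genes of endoplasmic reticulum stress signalling, the pathway of Ern2, 3 were called higher in Stat6+/- than in Stat6-/- lungs, where 4.84% of all probes were called. They were Atf3 (1.93 ± 0.44), Xbp1 (1.15 ± 0.22), whose RNA Ern1 and Ern2 can splice, and Bak1 (0.90 ± 0.18). In Epi+ against Stat6-/- lungs, where 0.0746% of all probes were called, 0 were called and Xbp1 was at -0.22 ± 0.22. Ern1, the broadly expressed relative of Ern2, was at 0.12 ± 0.31 in Stat6+/- against Stat6-/- lungs and was not called. In OVA against PBS lungs 1 of 22 was called, Derl3 (2.12 ± 0.34), and in Stat6+/- against Stat6-/- perfusate 1 of 21, Ddit3 (0.68 ± 0.17). Over all probes 1.75% and 3.14% were called in these comparisons. The macrophage markers, given above, were high on the same Stat6+/- and OVA lung arrays, and their part in these counts was not tested.

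Airway transcription factors other than Spdef and Foxa3 were also counted. In perfusate of Stat6+/- against Stat6-/-, Klf4 (1.20 ± 0.30) and Elf3 (0.87 ± 0.19) were higher and the Notch receptors Notch2 (-1.03 ± 0.22) and Notch1 (limma adjusted p = 0.00603), which were listed with them, were lower. These were 4 of 26, where 3.14% of all probes were called. Foxa2, a forkhead factor that restrains goblet cells in mouse lung, was at -0.57 ± 0.16 there with a limma adjusted p of 0.0538. In Stat6+/- against Stat6-/- lungs 1 of 25 was higher, Sox9 (2.04 ± 0.23), where 4.84% of all probes were called. In Epi+ against Stat6-/- and in OVA against PBS 0 were called by limma in either tissue. Over all probes 0.486% and 0.237% were called in these comparisons in perfusate, and 0.0746% and 1.75% in lung.

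**Figure D5:**
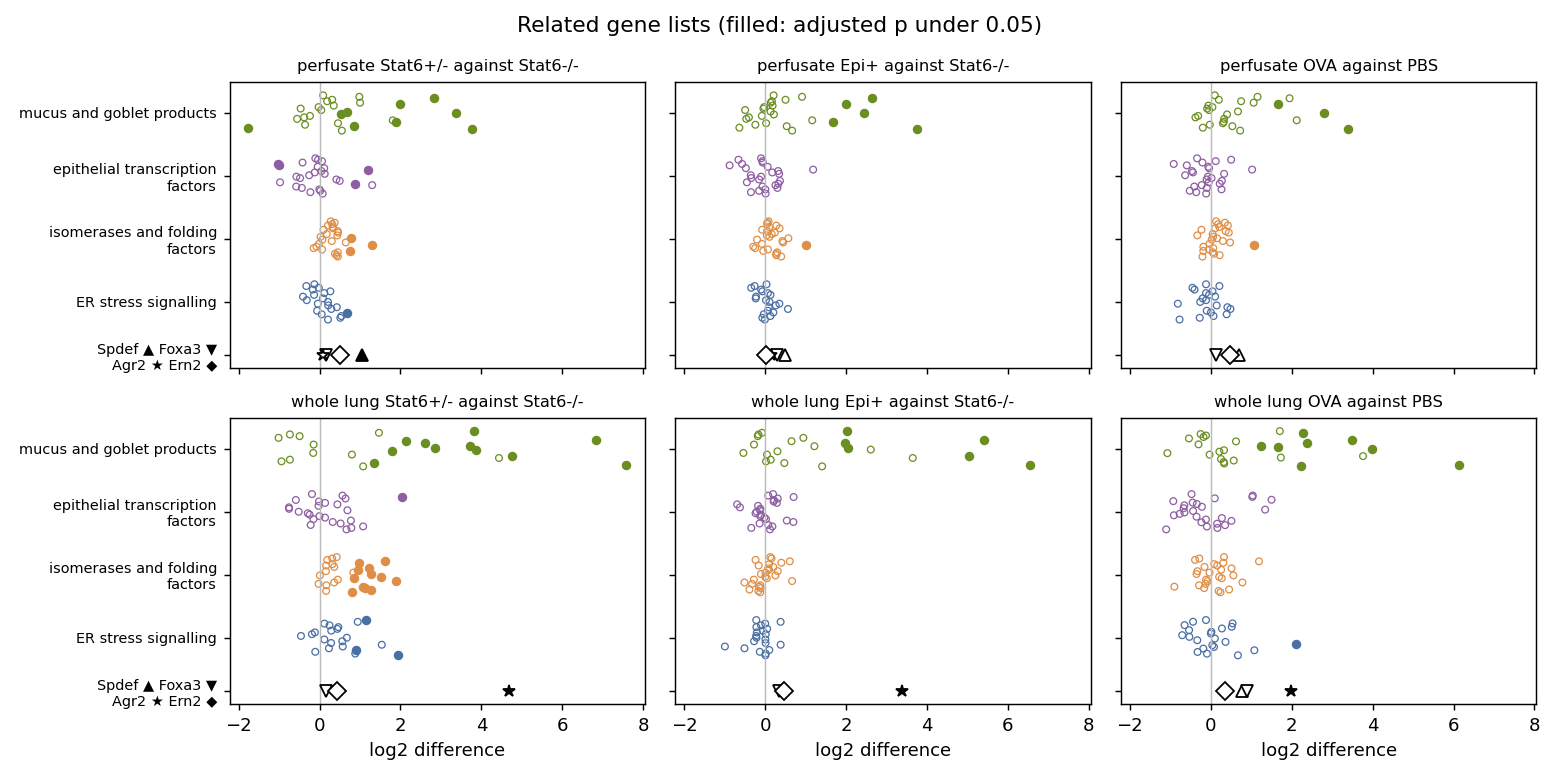
Log2 differences of the genes of 4 lists (circles, filled for a limma adjusted p under 0.05) and of Spdef, Foxa3, Agr2 and Ern2 (symbols in the lowest line) in 6 comparisons, perfusate above and whole lung below. In whole lung Stat6+/- against Stat6-/-, where 4.84% of all probes were called, 11 mucus and goblet products and 12 folding factors are filled. In Epi+ against Stat6-/- lungs, where 0.0746% of all probes were called, 6 and 0 are filled.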

How the data were processed

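Spotted arrays of tracheal perfusate and whole lung RNA were used, 50 in all, in 10 groups of 5 taken from the sample titles. The deposited values are log2 ratios of 2 channels, and their scale was read from the values, since 100% of the ratios are whole thousandths within 2e-04. How the arrays were scanned, background-corrected and normalized: not given in the sources used here. Intensities were not used. The arrays gave 15693 to 18655 values each, with medians from -0.96 to 0.30, and precision is limited by having 5 arrays a group.

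The median of each array was subtracted, spots of 1 accession were averaged, and probes with at least 3 values in every group of the fit were tested with limma 3.58.1 in R 4.3.3. Perfusate arrays had the reference preparation as a block, and the lungs of IL-13 mice the reference pool. The tissue comparison tested the perfusate difference minus the lung difference. P-values were adjusted by Benjamini-Hochberg over all probes of a comparison, and called means an adjusted p under 0.05. Errors are the SD between arrays for means and the SE of the fit for differences. The code was tested on simulated data.

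Reported were the 4 genes in every group, at most 4 called members per list and comparison with the largest absolute difference, and, for likeness, the 5 genes most correlated with each in perfusate and the 3 in lung. Other genes given by name were chosen after their values were seen. The 4 genes, the gene lists and the tests were chosen with earlier results of these data known. Alternatives were other scalings, filters and blocks, and leaving out arrays. Amplification was not stated for 3 perfusate arrays of preparation 1.3.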

Additional observations from a re-analysis of the deposited data

Results flagged for a closer look

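Each of the 4 genes was looked at in each of the 10 groups. In 4 of these sets the highest or lowest of 5 arrays lay apart from the rest by Dixon's criterion. Chance meets it in about 1 of 20 sets, so some of the 4 may be chance. They were Spdef at 0.96 in PBS lung replicate 4, Foxa3 at 3.11 in OVA lung replicate 6, Foxa3 at -1.14 in Stat6-/- lung replicate 1 and Ern2 at -1.83 in Stat6-/- perfusate replicate 10. The last is 1 of the 5 Stat6-/- arrays low in Eif2s3y, and so is the Stat6-/- lung array.

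The differences of Agr2 from Stat6-/- were not the same in the tissues, nor were those of some genes of mucus and goblet products. Tissue, amplification and reference cannot be told apart there. For Agr2 the perfusate difference minus the lung difference was -4.59 for Stat6+/- against Stat6-/- and -3.23 for Epi+ against Stat6-/-, both called by limma. In perfusate at least 1 Agr2 spot had a ratio of exactly 1 on 7 of 25 arrays, and the part of those values in the difference was not tested.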

How the results depend on the processing

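Agr2 was called higher in Stat6+/- and in Epi+ than in Stat6-/- lungs under each of 19 alternatives, with differences of 4.30 to 4.84 and 2.94 to 3.58, and its differences between the tissues under each of 27. The other calls rested on the model or on single arrays. Spdef in Stat6+/- perfusate was called under 15 of 19 alternatives against Stat6-/- and 13 of 18 against PBS. Agr2 was called under 12 of 18 in Stat6+/- against Epi+ lungs and 14 of 16 in OVA against PBS lungs. Over all alternatives the Spdef difference was 0.96 to 1.19 against Stat6-/- and 0.81 to 1.05 against PBS. The Agr2 difference was 1.11 to 1.54 in Stat6+/- against Epi+ lungs and 1.60 to 2.16 in OVA against PBS lungs. The count of called genes among the 4 was 1 in the main setting and 0 in each setting whose adjusted p follows. For Spdef in perfusate Stat6+/- against Stat6-/- the limma adjusted p was 0.192 with no reference block and 0.0563 with only the 2 groups compared. The limma adjusted p was 0.118 as deposited without centring and 0.113 without the arrays low in the first Eif2s3y probe. Leaving out 1 array kept the count at 1. Against PBS the limma adjusted p was 0.198, 0.114 and 0.231 under the first 3 of these settings, and leaving out 1 array gave counts of 0 to 1. For Agr2 in Stat6+/- against Epi+ lungs it was 0.0994 with no reference block, 0.066 with 2 groups, 0.099 after quantile normalization and 0.279 as deposited, and leaving out 1 array gave counts of 0 to 1. For Agr2 in OVA against PBS lungs it was 0.0583 as deposited. The cause was not tested.

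Deviations of lung arrays with the same number had r from -0.34 to 0.27 over 12 pairs of IL-13 lungs, 2 of them above 0.1. The median was -0.14, against 0.03 for other pairs. Over 4 OVA and PBS pairs r was -0.18 to 0.01, with a median of -0.11 against 0.03 for other pairs. With the number as a replicate block, the count of called genes was 0 in Stat6+/- against Epi+ (Agr2 1.27 ± 0.32, limma adjusted p = 0.153) and in OVA against PBS (2.06 ± 0.29, limma adjusted p = 0.164), and calls over all probes were 95 rather than 779 in Stat6+/- against Stat6-/-.

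Over all probes, calls ranged from 69 to 580 (529 in the main setting) in perfusate Stat6+/- against Stat6-/-, 1 to 106 (82) in Epi+ against Stat6-/-, 0 to 18 (4) in Stat6+/- against Epi+ and 0 to 47 (40) in OVA against PBS. Against PBS they ranged from 4 to 1611 (1203) in Stat6+/-, 0 to 871 (478) in Epi+ and 0 to 547 (101) in Stat6-/-. In lung they ranged from 95 to 1066 (779), 4 to 15 (12), 61 to 825 (550) and 0 to 440 (299) in the 4 comparisons as ordered above.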
